A study of Homo sapiens with 8 samples.

Results

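The gap junction connexin genes GJA1, GJB2 and GJC1 and the pannexin gene PANX1 were followed in Sum159, a long-established cell line of human triple-negative breast cancer with mesenchymal features. These 4 genes, of 58336 gene identifiers counted, were found by matching each identifier to its symbol, and all 4 passed the filter on low counts. The set was chosen by its measured levels and fold changes in these same libraries, so their own levels and fold changes are given as a description, with no test. RNA was sequenced from 8 libraries in 3 groups. The lung-recovered group (3 libraries, labelled ITGB4 low clone 1, bleomycin treated) was made of clone 1 cells that had entered mice through the tail vein. Those mice received bleomycin, a drug that injures the lung, through the trachea. Their lungs were later dissociated, the suspension was kept in culture overnight, and tumour cells were sorted by their red fluorescence (tdTomato). The ITGB4-low group (3 libraries) was the same clone 1 grown in dishes, and the ITGB4-high group (2 libraries) was Sum159 with a high level of ITGB4, also grown in dishes. ITGB4 is an integrin subunit of hemidesmosomes, and no drug is named for either dish-grown group. The ITGB4-low libraries all come from 1 clone, so in ITGB4-low over ITGB4-high features of that clone and of low ITGB4 cannot be told apart. The lung-recovered cells come from the same clone, but their measured ITGB4 level was not low. No lung-recovered cells without bleomycin were analysed here, so the lung stay, bleomycin, the overnight culture and the sort cannot be told apart either.

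Connexins are membrane proteins that assemble into hexameric hemichannels, and hemichannels of neighbouring cells dock to form gap junctions that pass ions and small metabolites. GJA1 encodes connexin 43, the most widespread connexin, found in fibroblasts, myoepithelial and many mesenchymal cells. GJB2 encodes connexin 26, a connexin of secretory and stratified epithelia that also serves the inner ear and the lactating mammary gland. GJC1 encodes connexin 45, known from the cardiac conduction system and smooth muscle. PANX1 encodes pannexin 1, which forms a single-membrane channel that releases ATP from the cell, and the released nucleotides act on purinergic receptors.

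The libraries held 20.41 to 27.22 M counts, and 15220 genes were tested with edgeR's quasi-likelihood test, with p-values adjusted over all of them. ITGB4 had 401.4, 375.5 and 406.9 CPM (counts per 1 M counts, after TMM scaling of the library sizes) in the lung-recovered libraries, 5.294, 7.456 and 9.133 CPM in the ITGB4-low libraries, and 419.9 and 376.4 CPM in the ITGB4-high libraries. The lung-recovered libraries, labelled ITGB4 low, thus lay at the level of the ITGB4-high ones. As a check of the line, VIM, a mesenchymal filament, averaged 4377, 4561 and 4828 CPM in lung-recovered, ITGB4-low and ITGB4-high libraries, CDH1 and PGR had 0 counts in all of them, and ESR1 had 1, 2 and 4 counts in those groups. Each group serves in 2 of the 3 comparisons, and all come from 1 fit, so the 3 comparisons are not independent. The log2 fold change of lung-recovered over ITGB4-high is the sum of the other 2.

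The promoters of 4 genes are shown because GJB2 and its neighbour GJA3 differed widely between groups while GJA1 and PANX1 differed little. No window for the member GJC1 was in the promoter set used, so none is shown. The sequences are from RefSeq (GRCh38.p14) and run from 250 bases before to 50 bases after the start of each gene, 5′ to 3′ on the gene's strand. GJB2 lies at chr13:20192889-20193188 (minus strand), GJA3 at chr13:20161003-20161302 (minus strand), GJA1 at chr6:121435396-121435695 (plus strand) and PANX1 at chr11:94128591-94128890 (plus strand). Capitals mark matches on either strand to an AP-1 site (TGANTCA), a GC box (GGGCGG) or an AP-2 site (GCCNNNGGC).
GJB2: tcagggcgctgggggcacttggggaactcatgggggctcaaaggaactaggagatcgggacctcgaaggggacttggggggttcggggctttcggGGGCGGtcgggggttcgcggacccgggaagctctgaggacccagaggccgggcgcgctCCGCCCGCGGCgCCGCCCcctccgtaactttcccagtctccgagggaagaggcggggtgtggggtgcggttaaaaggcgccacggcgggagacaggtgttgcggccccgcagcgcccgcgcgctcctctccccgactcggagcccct
GJA3: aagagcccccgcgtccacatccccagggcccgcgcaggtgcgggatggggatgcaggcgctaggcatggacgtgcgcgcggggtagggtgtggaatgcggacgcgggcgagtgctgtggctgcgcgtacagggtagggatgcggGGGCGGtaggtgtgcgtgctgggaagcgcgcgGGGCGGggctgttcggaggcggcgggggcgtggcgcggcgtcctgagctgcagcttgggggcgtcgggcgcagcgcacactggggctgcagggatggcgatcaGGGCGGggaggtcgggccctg
GJA1: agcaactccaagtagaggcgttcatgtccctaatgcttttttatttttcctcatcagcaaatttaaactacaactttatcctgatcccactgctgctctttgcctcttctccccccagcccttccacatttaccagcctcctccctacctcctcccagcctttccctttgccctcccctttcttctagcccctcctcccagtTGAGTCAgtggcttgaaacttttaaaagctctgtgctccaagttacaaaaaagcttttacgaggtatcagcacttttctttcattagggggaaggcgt
PANX1: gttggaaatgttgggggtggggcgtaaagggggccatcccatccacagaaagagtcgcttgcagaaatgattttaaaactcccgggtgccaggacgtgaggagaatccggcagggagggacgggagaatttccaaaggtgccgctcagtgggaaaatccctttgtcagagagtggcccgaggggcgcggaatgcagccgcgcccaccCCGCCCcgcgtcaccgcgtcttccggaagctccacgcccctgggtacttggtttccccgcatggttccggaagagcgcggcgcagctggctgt

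GJB2 and GJA3, neighbours on chromosome 13, both had GC-rich windows of 71.7% and 74.7% G and C, and each held 3 GC boxes. In GJB2 the GC boxes began at positions -155, -97 and -85 from the RefSeq start, and an AP-2 site at -95 overlapped the one at -97. In GJA3 they began at -106, -74 and 30. The GJA1 window was 47.0% G and C, with no GC box and 1 AP-1 site at -48. The PANX1 window was 62.3% G and C and held 1 GC box at -43. A T-box site (GGTGTGA, either strand) was in none of the 4 windows shown, which leave out GJC1. Of 35116 RefSeq promoter windows of the same 300 bases, 45.0% held a GC box, 23.2% an AP-2 site, 7.7% an AP-1 site and 3.4% the T-box site. These matches describe the letters in the windows and nothing more.

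GJB2 was the member with the largest fold change in each of the 3 comparisons, while in CPM the highest and lowest group means lay farther apart for GJA1. It is ENSG00000165474, on hg38 chromosome 13 from 20187463 to 20193010 on the minus strand. Its level was 17.52, 20.76 and 16.92 CPM in lung-recovered libraries, 2.768, 3.142 and 2.052 CPM in ITGB4-low libraries, and 0.3018 and 0.3117 CPM in ITGB4-high libraries. The 3 groups stood apart with no overlap, in the order lung-recovered, ITGB4-low, ITGB4-high. The means were 18.4 ± 2.06 CPM in lung-recovered cells (SD, n = 3), 2.65 ± 0.55 CPM in ITGB4-low cells (SD, n = 3) and 0.307 ± 0.0071 CPM in ITGB4-high cells (SD, n = 2). These levels rest on 417 to 450 counts per lung-recovered library, 51 to 67 per ITGB4-low library and 8 in each ITGB4-high library.

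The log2 fold change of GJB2 was 2.80 ± 0.14 (SE) for lung-recovered over ITGB4-low cells, a 6.97-fold higher level. Lung-recovered over ITGB4-high was 5.88 ± 0.23, or 58.8-fold, and ITGB4-low over ITGB4-high was 3.08 ± 0.32, or 8.44-fold. Of the 15220 genes tested, 128 had a larger log2 fold change than GJB2 for lung-recovered over ITGB4-low, 49 for lung-recovered over ITGB4-high, and 257 for ITGB4-low over ITGB4-high. In these bulk samples, fewer cells carrying a transcript and less of that transcript per cell cannot be told apart, so it is not known whether GJB2 was higher in all lung-recovered cells or in some of them.

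GJC1 (ENSG00000182963, hg38 chromosome 17, 44798448 to 44830816, minus strand) had its highest level in dish-grown clone 1. It measured 25.12, 29.27 and 22.6 CPM in lung-recovered libraries, 42.55, 38.5 and 38.26 CPM in ITGB4-low libraries, and 27.01 and 28.21 CPM in ITGB4-high libraries. Every ITGB4-low library was above every library of the other 2 groups, while the ITGB4-high values lay inside the lung-recovered range. The log2 fold change was -0.64 ± 0.08 (SE) for lung-recovered over ITGB4-low, 0.53 ± 0.09 for ITGB4-low over ITGB4-high, and -0.11 ± 0.09 for lung-recovered over ITGB4-high. The lung-recovered and ITGB4-high means, 25.7 and 27.6 CPM, differed by 1.95 CPM, less than the 3.37 CPM SD of the lung-recovered libraries.

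PANX1 (ENSG00000110218, hg38 chromosome 11, 94128928 to 94181972, plus strand) had its lowest level in dish-grown clone 1. It measured 61.29, 61.94 and 59.48 CPM in lung-recovered libraries, 55.17, 50.88 and 53.07 CPM in ITGB4-low libraries, and 63.07 and 62.35 CPM in ITGB4-high libraries. The ITGB4-low libraries lay below all others, and the lung-recovered libraries lay just under the ITGB4-high ones. The log2 fold change was 0.20 ± 0.05 (SE) for lung-recovered over ITGB4-low, -0.24 ± 0.05 for ITGB4-low over ITGB4-high, and -0.04 ± 0.05 for lung-recovered over ITGB4-high. The means lay in a narrow range, at 60.9 ± 1.28 CPM in lung-recovered cells (SD, n = 3), 53.0 ± 2.15 CPM in ITGB4-low cells (SD, n = 3) and 62.7 ± 0.51 CPM in ITGB4-high cells (SD, n = 2).

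GJA1 (ENSG00000152661, hg38 chromosome 6, 121435577 to 121449727, plus strand) was the most abundant member in all 8 libraries. It measured 159.6, 165.1 and 158.0 CPM in lung-recovered libraries, 169.4, 168.1 and 161.1 CPM in ITGB4-low libraries, and 132.7 and 132.1 CPM in ITGB4-high libraries. Both groups of clone 1 cells lay above the ITGB4-high libraries, and the lung-recovered and ITGB4-low libraries overlapped. The log2 fold change was -0.05 ± 0.04 (SE) for lung-recovered over ITGB4-low, 0.28 ± 0.05 for lung-recovered over ITGB4-high, and 0.33 ± 0.05 for ITGB4-low over ITGB4-high. GJA1P1, a processed pseudogene of GJA1 that could share its reads, had 0 counts in lung-recovered, 1 in ITGB4-low and 1 in ITGB4-high libraries, and no annotated gene overlapped any of the 4 members.

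**Figure D1:**
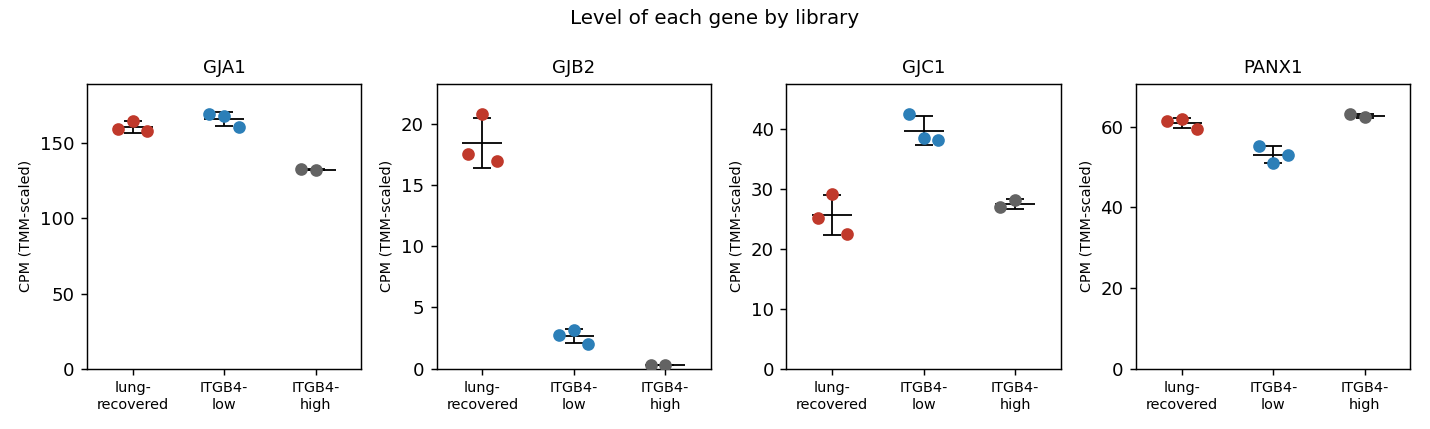
Level of GJA1, GJB2, GJC1 and PANX1 in each library (y axis, CPM scaled by TMM, from 0) by group (x axis). Points are libraries, long lines are group means and bars are 1 SD. GJB2 steps down from lung-recovered to ITGB4-low to ITGB4-high libraries without overlap, GJC1 is highest and PANX1 lowest in ITGB4-low libraries, and GJA1 is lowest in ITGB4-high libraries.

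Between lung-recovered and ITGB4-low cells, 3 of the 4 members passed an edgeR adjusted p under 0.05, where 30.1% of all genes did (2 higher, beside 14.7% of all genes, and 1 lower, beside 15.4%), and the libraries of 3 did not overlap, as for 43.3% of all genes. Between lung-recovered and ITGB4-high cells 2 of the 4 passed, both higher, against 51.2% of all genes (26.2% higher and 25.0% lower), and 3 did not overlap, against 66.8%. Between ITGB4-low and ITGB4-high cells all 4 passed, 3 higher and 1 lower, against 56.2% of all genes (28.6% higher and 27.6% lower), and all 4 did not overlap, against 68.7%. Since the members were chosen with these contrasts known, nothing is read from those counts.

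Of the 20 other human connexin and pannexin genes, 12 had 0 counts in all 8 libraries, so a level above 0.0157 CPM, which 3 counts over all libraries would give, was not detected. Among them were GJA4, GJA5, GJA9, GJA10, GJB1, GJB6, GJD2, GJD4, GJE1 and PANX3. GJA4 and GJA5 encode connexins found in endothelium, though not the only ones there, and GJB6 encodes connexin 30, the usual partner of GJB2 in the inner ear. Others, GJB7, GJC3 and GJD3 among them, had some counts but too few to be tested. GJB7 had a total of 0 counts in lung-recovered and 1 in ITGB4-low libraries, and 4 and 11 counts in the ITGB4-high libraries.

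GJA3, GJB5 and PANX2 were tested, and none of these followed the order of GJB2 across all 3 groups. GJA3 encodes connexin 46, a lens connexin. Its level was 7.94, 6.714 and 7.82 CPM in lung-recovered libraries, 11.17, 9.097 and 8.771 CPM in ITGB4-low libraries, and 0.3772 and 0.3117 CPM in ITGB4-high libraries. Both groups of clone 1 cells were far above the ITGB4-high libraries, and the lung-recovered libraries lay below the ITGB4-low ones. GJA3 was 27.6-fold higher in ITGB4-low than in ITGB4-high cells (log2 fold change 4.78 ± 0.23 SE, edgeR adjusted p = 1.12e-12), and its log2 fold change for lung-recovered over ITGB4-high was 4.42 ± 0.24 (edgeR adjusted p = 1.07e-11). For lung-recovered over ITGB4-low it was -0.36 ± 0.12 (edgeR adjusted p = 0.0251). That call ended without ITGB4-low replicate 1 (adjusted p = 0.134) and without lung-recovered replicate 2 (adjusted p = 0.0988), both from edgeR, and with DESeq2 (adjusted p = 0.0565).

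GJB5, which encodes an epidermal connexin, had 3, 2 and 2 counts in lung-recovered libraries, 0 in each ITGB4-low library, and 18 and 20 counts in ITGB4-high libraries. It passed the filter on low counts only through the ITGB4-high libraries, so its differences from that group are given without a test. With 3 counts in place of the 0 of the ITGB4-low group, GJB5 was at least 16.2-fold lower there than in ITGB4-high cells. On the same footing it was at least 2.18-fold higher in lung-recovered than in ITGB4-low cells. Both folds are lower bounds that take the counts of the other group as exact. The difference between lung-recovered and ITGB4-low cells was called (edgeR adjusted p = 0.0295), and this call rests on 7 counts. It ended in edgeR without ITGB4-low replicate 1, 2 or 3 (adjusted p = 0.0608, 0.0667 and 0.0747) and without lung-recovered replicate 1 (adjusted p = 0.0801). A replicate block in edgeR also ended it (adjusted p = 0.0501). Lung-recovered over ITGB4-high had a log2 fold change of -2.83 ± 0.53 (SE).

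PANX2, a pannexin known mainly from the nervous system, had 2.311, 2.601 and 2.369 CPM in lung-recovered libraries, 1.748, 2.157 and 2.374 CPM in ITGB4-low libraries, and 2.867 and 3.663 CPM in ITGB4-high libraries. Both groups of clone 1 cells overlapped each other and lay below the ITGB4-high libraries. PANX2 fell in ITGB4-low relative to ITGB4-high cells (log2 fold change -0.63 ± 0.20 SE, edgeR adjusted p = 0.0108), a call that ended without ITGB4-high replicate 2 (edgeR adjusted p = 0.125). Lung-recovered over ITGB4-high, at -0.43 (edgeR adjusted p = 0.07), was not called and passed without ITGB4-high replicate 1 (edgeR adjusted p = 0.04).

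**Figure D2:**
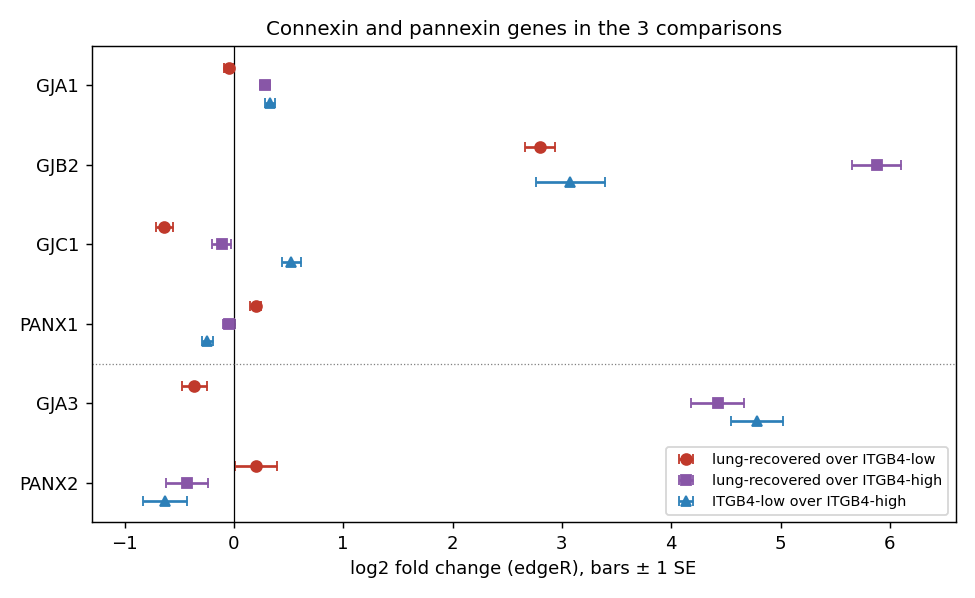
Log2 fold change (x axis, edgeR, bars ± 1 SE) of the 4 members above the grey line and of GJA3 and PANX2 below it (y axis), in the 3 comparisons shown by colour and shape. GJB2 lies at 2.80, 5.88 and 3.08, GJA3 at -0.36, 4.42 and 4.78, and PANX1 lies between -0.24 and 0.20. GJB5 is left out because its ITGB4-low libraries had 0 counts.

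To compare the genes with each other, CPM were divided by the length of each gene's exons and summed over all connexin genes. The sum of connexin transcripts per kb was 62.0 ± 2.45 CPM per kb in lung-recovered cells (SD, n = 3), 57.8 ± 1.66 in ITGB4-low cells (SD, n = 3) and 44.5 ± 0.042 in ITGB4-high cells (SD, n = 2). GJA1 made up most of it everywhere, with 76.1 ± 1.24% of the sum in lung-recovered, 84.2 ± 0.28% in ITGB4-low and 87.2 ± 0.23% in ITGB4-high cells (SD). The share of GJB2 was 11.6 ± 0.83% in lung-recovered, 1.80 ± 0.33% in ITGB4-low and 0.271 ± 0.0065% in ITGB4-high cells (SD). GJB2 was thus the second connexin by level per length in lung-recovered cells, while GJC1 took that place in both dish-grown groups. The share of GJC1 was 4.77 ± 0.44% in lung-recovered, 7.94 ± 0.39% in ITGB4-low and 7.17 ± 0.23% in ITGB4-high cells (SD).

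Among the smaller shares, GJA3 took 2.33 ± 0.29% of the sum in lung-recovered, 3.21 ± 0.38% in ITGB4-low and 0.149 ± 0.020% in ITGB4-high cells (SD). PANX1, a pannexin and so outside that sum, stood at 22 ± 0.46 CPM per kb in lung-recovered, 19.2 ± 0.78 in ITGB4-low and 22.6 ± 0.18 in ITGB4-high cells (SD), below GJA1 at 47.1, 48.7 and 38.8 CPM per kb in the same groups and above every other connexin. PANX2 stood at 0.782, 0.675 and 1.05 CPM per kb in the same groups.

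**Figure D3:**
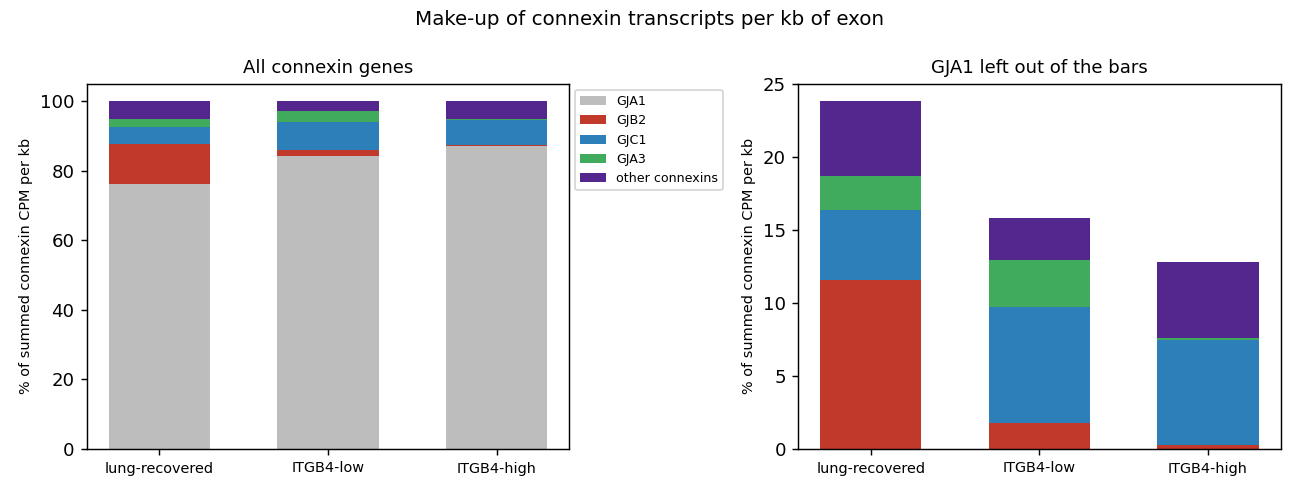
Make-up of connexin transcripts in each group (x axis), as the mean share of the summed connexin CPM per kb of exon (y axis, percent), with all connexins on the left and GJA1 left out of the bars on the right. The share of GJB2 is 11.6% in lung-recovered, 1.80% in ITGB4-low and 0.271% in ITGB4-high cells, and GJA1 takes 76.1 to 87.2%.

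Genes near each member were examined to show whether the member's level moved with its stretch of chromosome. Around GJB2, 25 tested genes started within 2 Mb. For lung-recovered over ITGB4-low, where GJB2 had a log2 fold change of 2.80, these neighbours ranged from -0.59 to 0.23 with a median of -0.04, against a median near 0 for all genes. By edgeR, 2 of them were called higher and 6 lower, beside 14.7% and 15.4% of all genes. For ITGB4-low over ITGB4-high, where GJB2 had 3.08, the median of its neighbours was 0.38, with 13 called higher and 1 lower. Of all genes, 28.6% were called higher and 27.6% lower in that comparison. The neighbour with the largest log2 fold change there was GJA3, whose start lies 32.0 kb from that of GJB2. GJB2 and GJA3 therefore both had higher levels in ITGB4-low than in ITGB4-high cells, but for lung-recovered over ITGB4-low their log2 fold changes were 2.80 and -0.36.

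The other members stood nearer to the median of their neighbours than GJB2 did. The 6 tested neighbours of GJA1 had a median log2 fold change of -0.21 for lung-recovered over ITGB4-low and 0.39 for ITGB4-low over ITGB4-high, beside -0.05 and 0.33 for GJA1. The 71 neighbours of GJC1 had medians of -0.02 and -0.08 in the same comparisons, beside -0.64 and 0.53 for GJC1. They spread widely, so those medians do not describe each neighbour. For lung-recovered over ITGB4-low they ranged from -1.38 to 2.81, with 5 called higher and 13 lower by edgeR. For ITGB4-low over ITGB4-high they ranged from -2.54 to 2.51, with 18 called higher and 19 lower. The shares of all genes called higher and lower were 14.7% and 15.4% for lung-recovered over ITGB4-low. They were 28.6% and 27.6% for ITGB4-low over ITGB4-high. The 21 neighbours of PANX1 had medians of -0.11 and 0.03, beside 0.20 and -0.24 for PANX1.

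**Figure D4:**
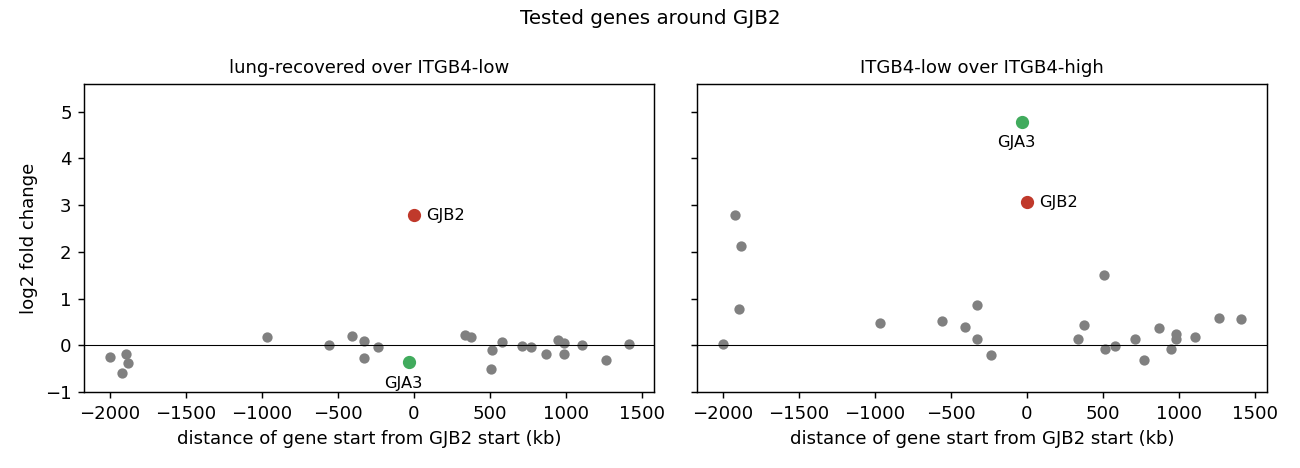
Log2 fold change (y axis) of each tested gene within 2 Mb of GJB2 against the distance of its start from that of GJB2 (x axis, kb), for lung-recovered over ITGB4-low on the left and ITGB4-low over ITGB4-high on the right. GJB2 stands alone at 2.80 on the left, and GJA3 lies above it on the right, at 4.78 against 3.08.

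Among 9779 genes with at least 10 CPM on average in a group, those whose log2 levels followed each member most closely over the 8 libraries were found by Pearson's r. These r values describe libraries that fall into 3 groups, so any gene with the same order of groups scores high. For GJB2 they were IFNGR2, a subunit of the interferon gamma receptor (r = 0.997), STMN3, a stathmin that destabilises microtubules (r = 0.996), and MED9, a Mediator subunit (r = 0.995). IFNGR2 averaged 70.6 CPM in lung-recovered, 47.4 in ITGB4-low and 36.7 in ITGB4-high cells, the same order as GJB2 over a smaller range. For GJA1 they were RUNX2, a transcription factor of bone formation, GCNT1, a glycosyltransferase, and PLPP3, a lipid phosphatase (r = 0.994 each). RUNX2 averaged 34.7 CPM in lung-recovered, 45.8 in ITGB4-low and 8.49 in ITGB4-high cells.

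The genes most like GJC1 were TRERF1, a zinc finger protein (r = 0.984), PCDH9, a protocadherin (r = 0.983), and LPP, a focal adhesion protein (r = 0.982). LPP averaged 279 CPM in lung-recovered, 530 in ITGB4-low and 290 in ITGB4-high cells. The genes most like PANX1 were TSPAN13, a tetraspanin (r = 0.991), and ETV6 and SBNO2, both transcriptional regulators (r = 0.982 each). ETV6 averaged 32.3 CPM in lung-recovered, 19.3 in ITGB4-low and 32.5 in ITGB4-high cells.

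Genes of 9 companion lists were examined around the members, with 63 of 98 listed genes passing the filter on low counts. For lung-recovered over ITGB4-low, edgeR called 14 higher and 16 lower, or 47.6% of those tested, beside 30.1% of all genes. For lung-recovered over ITGB4-high it called 30 higher and 9 lower (61.9%, beside 51.2%), and for ITGB4-low over ITGB4-high 28 higher and 14 lower (66.7%, beside 56.2%). The median log2 fold change of the listed genes was 0.04, 0.16 and 0.15 in those 3 comparisons, beside medians of all genes near 0. The counts given below for each list stand beside the same shares of all genes. The lists were chosen with earlier results of these data known, so nothing is read from these shares or counts.

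All 10 partners of GJA1 at the membrane were tested, and all were called between the dish-grown groups, where 56.2% of all genes were. In this list 1 rose and 4 fell in lung-recovered over ITGB4-low cells (median log2 fold change -0.01), and 7 rose and 3 fell in ITGB4-low over ITGB4-high cells (median 0.28). CDH2, or N-cadherin, the adhesion molecule that holds junctional membranes together, averaged 138.6 ± 2.10 CPM in lung-recovered, 256.3 ± 4.06 in ITGB4-low and 81.6 ± 6.17 in ITGB4-high cells (SD). Its log2 fold change was -0.89 ± 0.04 (SE) for lung-recovered over ITGB4-low (edgeR adjusted p = 4.7e-12), 0.76 ± 0.05 for lung-recovered over ITGB4-high (2.59e-10) and 1.65 ± 0.05 for ITGB4-low over ITGB4-high (1.79e-15). TJP1, or ZO-1, the scaffold that binds the tail of connexin 43, fell by 0.33 on the log2 scale in lung-recovered over ITGB4-low cells (edgeR adjusted p = 2.69e-06). CAV1 and PTPRM were the other 2 that fell there, outside the rule for named genes. DBN1, the actin-binding drebrin, was the 1 that rose, by 0.18 (edgeR adjusted p = 0.00403).

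For lung-recovered over ITGB4-high, 5 of the 10 partners rose and 1 fell (median 0.12). The fall was that of CCN3, a secreted matricellular protein that binds connexin 43, with a log2 fold change of -0.72 (edgeR adjusted p = 0.00563), and -0.84 for ITGB4-low over ITGB4-high (edgeR adjusted p = 0.00177). CAV1, the caveolar scaffold, rose by 0.64 in ITGB4-low over ITGB4-high cells (edgeR adjusted p = 1.58e-08), and CTTN, the actin regulator cortactin, fell by 0.15 (edgeR adjusted p = 0.00687). CAV1, CTNNB1 and EZR rose in lung-recovered over ITGB4-high cells, named after their values were seen, and the call for CTNNB1 in that comparison ended without ITGB4-high replicate 2 (edgeR adjusted p = 0.0889). In ITGB4-low over ITGB4-high cells the call for CTNNB1 ended without ITGB4-high replicate 2 (edgeR adjusted p = 0.0513) and that for DBN1 without ITGB4-high replicate 1 (edgeR adjusted p = 0.221).

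Of 10 genes of connexin trafficking and turnover, all tested, 2 rose and 1 fell in lung-recovered over ITGB4-low cells (median 0.02), 3 rose and 2 fell in lung-recovered over ITGB4-high (median -0.03), and 2 rose and 2 fell in ITGB4-low over ITGB4-high (median -0.05). Thus 3, 5 and 4 of the 10 were called, beside 30.1%, 51.2% and 56.2% of all genes. NEDD4, a ubiquitin ligase that acts on connexin 43, averaged 275.4 CPM in lung-recovered, 318.8 in ITGB4-low and 207.1 in ITGB4-high cells. Its log2 fold changes were -0.21, 0.41 and 0.62 for lung-recovered over ITGB4-low, lung-recovered over ITGB4-high and ITGB4-low over ITGB4-high (edgeR adjusted p = 0.000934, 9.84e-07 and 2.34e-09). UBQLN4, which carries connexin 43 to the proteasome, fell by 0.63 in ITGB4-low over ITGB4-high cells (edgeR adjusted p = 2.25e-09). TSG101, an ESCRT subunit that sorts connexins to lysosomes, rose by 0.19 in lung-recovered over ITGB4-low cells (edgeR adjusted p = 0.00369).

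Of 13 kinases that phosphorylate connexin 43, 3 rose and 3 fell in lung-recovered over ITGB4-low cells (median -0.06). Lung-recovered over ITGB4-high had 5 higher and 2 lower (median 0.05), and ITGB4-low over ITGB4-high had 6 higher and 2 lower (median 0.20). SRC, whose phosphorylation of connexin 43 closes gap junctions, averaged 40.3 ± 1.66 CPM in lung-recovered, 43.1 ± 0.60 in ITGB4-low and 66.1 ± 4.20 in ITGB4-high cells (SD). It fell by 0.72 in lung-recovered over ITGB4-high cells (edgeR adjusted p = 3.45e-09) and by 0.62 in ITGB4-low over ITGB4-high cells (edgeR adjusted p = 2.19e-08). CDK1, the mitotic kinase, rose by 0.61 in ITGB4-low over ITGB4-high cells (edgeR adjusted p = 3.81e-09), as did PRKACB, a catalytic subunit of protein kinase A, by 0.65 (edgeR adjusted p = 2.06e-07). PRKACB fell by 0.28 in lung-recovered over ITGB4-low cells (edgeR adjusted p = 0.0018), and CSNK1D, a casein kinase, rose by 0.16 there (edgeR adjusted p = 0.00644).

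The receptors for nucleotides that pannexin channels release were examined next. Only 5 of 15 purinergic receptor genes passed the filter on low counts. P2RX7, an ATP-gated ion channel known to work with PANX1 in ATP release, had 2.521, 1.986 and 2.406 CPM in lung-recovered libraries, 0.1943, 0.422 and 0.6035 CPM in ITGB4-low libraries, and 1.848 and 1.598 CPM in ITGB4-high libraries. The ITGB4-low libraries lay below all others, with 4 to 15 counts each, and the lung-recovered libraries lay above the ITGB4-high ones. P2RX7 was 5.48-fold higher in lung-recovered than in ITGB4-low cells (log2 fold change 2.45 ± 0.30 SE, edgeR adjusted p = 2.18e-06) and fell by 2.03 ± 0.33 on the log2 scale in ITGB4-low over ITGB4-high cells (edgeR adjusted p = 3.36e-05). Lung-recovered over ITGB4-high, at 0.42, was not called (edgeR adjusted p = 0.164). PANX1 likewise had its lowest level in ITGB4-low cells, over a narrower range.

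P2RX4, another ATP-gated channel, rose by 0.76 ± 0.23 in lung-recovered over ITGB4-low cells (edgeR adjusted p = 0.0168), a call that ended without ITGB4-low replicate 2 (edgeR adjusted p = 0.0503) or lung-recovered replicate 3 (edgeR adjusted p = 0.111). P2RY1, an ADP receptor named there after its values were seen, rose by 0.51 (edgeR adjusted p = 0.0445), a call lost with DESeq2 (adjusted p = 0.0827). It was also lost in edgeR without ITGB4-low replicate 1, 2 or 3 (adjusted p = 0.0802, 0.0805 and 0.099) and without lung-recovered replicate 1 or 2 (adjusted p = 0.191 and 0.116). The same held with limma-voom (adjusted p = 0.0646) and with a replicate block in edgeR (adjusted p = 0.0587). In lung-recovered over ITGB4-high cells, P2RX4 rose by 1.48, P2RY1 by 1.05 and P2RX5 by 0.73 (edgeR adjusted p = 0.00018, 0.000452 and 3.17e-06). P2RY11, an ATP receptor coupled to G proteins, fell by 0.60 there and by 0.68 in ITGB4-low over ITGB4-high cells (edgeR adjusted p = 0.000657 and 0.000204). Over the list, 3 rose and 0 fell in lung-recovered over ITGB4-low (median 0.51), 3 rose and 1 fell in lung-recovered over ITGB4-high (median 0.73), and 1 rose and 2 fell in ITGB4-low over ITGB4-high (median 0.54).

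Of 8 genes for nucleotide breakdown and adenosine sensing, 3 were tested. ADORA2B, the low-affinity adenosine receptor, had 11.26, 12.39 and 10.11 CPM in lung-recovered libraries, 7.237, 9.097 and 9.214 CPM in ITGB4-low libraries, and 1.056 and 0.8183 CPM in ITGB4-high libraries. The order of the groups was that of GJB2, without overlap. ADORA2B was 11.9-fold higher in lung-recovered than in ITGB4-high cells (log2 fold change 3.57 ± 0.19 SE, edgeR adjusted p = 7.07e-12) and 9.05-fold higher in ITGB4-low than in ITGB4-high cells (3.18 ± 0.20, edgeR adjusted p = 4.77e-11). For lung-recovered over ITGB4-low its log2 fold change was 0.39 ± 0.11 (edgeR adjusted p = 0.0129), a call lost without ITGB4-low replicate 1 (edgeR adjusted p = 0.0606) or lung-recovered replicate 2 (edgeR adjusted p = 0.0648). NT5E, or CD73, the enzyme that makes adenosine from AMP, averaged 95.0 ± 4.67 CPM in lung-recovered, 129.1 ± 8.60 in ITGB4-low and 74.2 ± 0.053 in ITGB4-high cells (SD). It fell by 0.44 in lung-recovered over ITGB4-low cells (edgeR adjusted p = 1.29e-06) and rose by 0.36 in lung-recovered over ITGB4-high and by 0.80 in ITGB4-low over ITGB4-high cells (edgeR adjusted p = 4.51e-05 and 6.85e-10).

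Among other large-pore channels, 7 of 11 genes were tested, with 0 higher and 3 lower in lung-recovered over ITGB4-low cells (median -0.12). Lung-recovered over ITGB4-high had 5 higher and 1 lower (median 0.40), and ITGB4-low over ITGB4-high 5 higher and 0 lower (median 0.33). CALHM5, of the calcium homeostasis modulator family, averaged 14.7 ± 0.85 CPM in lung-recovered, 19.9 ± 2.77 in ITGB4-low and 5.72 ± 0.49 in ITGB4-high cells (SD). It fell by 0.44 in lung-recovered over ITGB4-low cells and rose by 1.36 in lung-recovered over ITGB4-high and 1.80 in ITGB4-low over ITGB4-high cells (edgeR adjusted p = 0.0012, 2.34e-08 and 1.83e-10). LRRC8C, a subunit of the volume-regulated anion channel, rose by 1.94 in lung-recovered over ITGB4-high and 2.43 in ITGB4-low over ITGB4-high cells (edgeR adjusted p = 2.74e-06 and 5.85e-08). The fall of its relative LRRC8E in lung-recovered over ITGB4-high cells (-0.41, edgeR adjusted p = 0.0205) ended without ITGB4-high replicate 1, at -0.04 (edgeR adjusted p = 0.828), and without lung-recovered replicate 1 (edgeR adjusted p = 0.0755). CALHM2, LRRC8A and LRRC8B also rose in lung-recovered over ITGB4-high cells, and LRRC8C and LRRC8D fell with CALHM5 in lung-recovered over ITGB4-low cells, some of them named after their values were seen. In lung-recovered over ITGB4-high, edgeR lost LRRC8A without ITGB4-high replicate 2 (adjusted p = 0.182). CALHM2 was lost there under 5 alternatives, among them DESeq2 (adjusted p = 0.0595) and edgeR without ITGB4-high replicate 1 (adjusted p = 0.0837). In lung-recovered over ITGB4-low, LRRC8C was lost under 7 alternatives, among them DESeq2 (adjusted p = 0.103) and edgeR without lung-recovered replicate 3 (adjusted p = 0.17). LRRC8D was lost there under 8, among them DESeq2 (adjusted p = 0.0508) and edgeR without lung-recovered replicate 1 (adjusted p = 0.162).

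**Figure D5:**
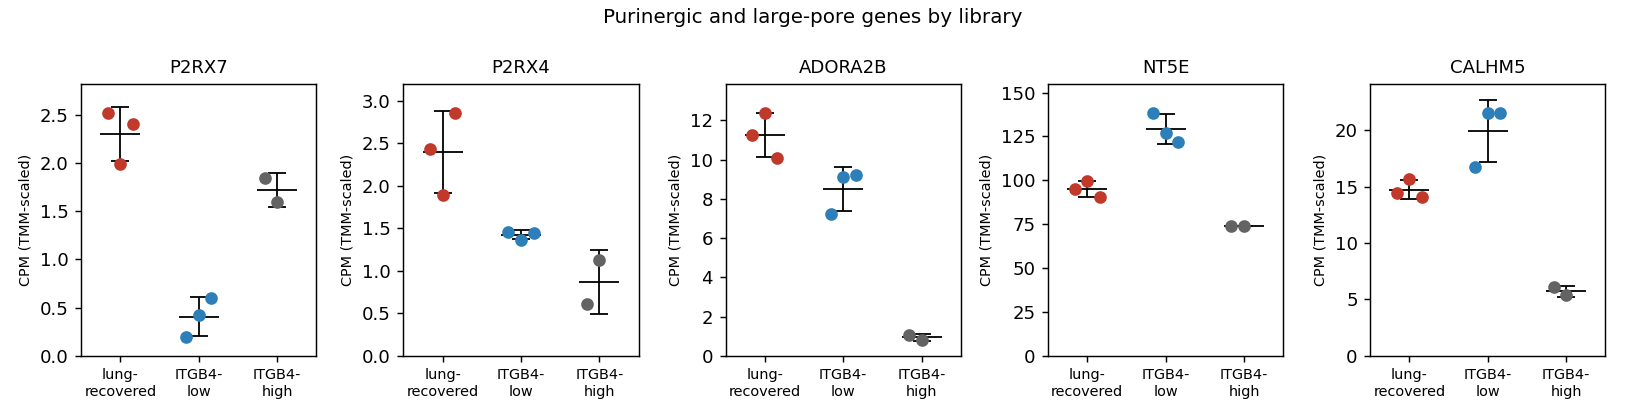
Level of P2RX7, P2RX4, ADORA2B, NT5E and CALHM5 in each library (y axis, CPM scaled by TMM, from 0) by group (x axis), with group means as long lines and bars of 1 SD. P2RX7 is lowest and NT5E and CALHM5 are highest in ITGB4-low libraries, and ADORA2B is near 1 CPM in ITGB4-high libraries, at 1.056 and 0.8183.

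Transcription factors known to act on the GJA1 or GJB2 promoters differed among themselves. Of 9 tested, 2 rose and 2 fell in lung-recovered over ITGB4-low cells (median 0.09), 3 rose and 1 fell in lung-recovered over ITGB4-high (median 0.02), and 3 rose and 3 fell in ITGB4-low over ITGB4-high (median -0.07). JUNB, an AP-1 subunit, averaged 138.5 ± 4.99 CPM in lung-recovered, 67.5 ± 3.77 in ITGB4-low and 145.5 ± 1.61 in ITGB4-high cells (SD). It rose by 1.03 ± 0.05 (SE) in lung-recovered over ITGB4-low cells (edgeR adjusted p = 1.88e-12) and fell by 1.11 ± 0.05 in ITGB4-low over ITGB4-high cells (edgeR adjusted p = 7.87e-13). JUN, its relative, averaged 66.8 CPM in lung-recovered, 84.7 in ITGB4-low and 116.2 in ITGB4-high cells and fell in all 3 comparisons, by 0.34, 0.80 and 0.46 (edgeR adjusted p = 6.69e-06, 5.15e-11 and 1.28e-07). FOS, their AP-1 partner, rose by 0.89 in lung-recovered over ITGB4-low cells (edgeR adjusted p = 0.00951), a call that ended without lung-recovered replicate 1 (edgeR adjusted p = 0.0676).

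TBX3, a T-box repressor, averaged 78.7 ± 4.16 CPM in lung-recovered, 72.6 ± 11.8 in ITGB4-low and 24.7 ± 0.24 in ITGB4-high cells (SD). It rose by 1.67 in lung-recovered over ITGB4-high and by 1.55 in ITGB4-low over ITGB4-high cells (edgeR adjusted p = 2.48e-11 and 5.74e-11). TFAP2A, an AP-2 factor, fell by 0.23 in lung-recovered over ITGB4-low cells (edgeR adjusted p = 0.00465), and TFAP2C rose by 0.36 in lung-recovered over ITGB4-high cells (edgeR adjusted p = 0.00585). TFAP2A rose and SP1 fell in ITGB4-low over ITGB4-high cells, and TBX2 rose in lung-recovered over ITGB4-high, all named after their values were seen. The last of these calls was lost under 6 alternatives, among them DESeq2 (adjusted p = 0.0804) and edgeR without ITGB4-high replicate 2 (adjusted p = 0.248).

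Human genes that mark lung cell types were also counted. Lung cells carried over by the sort would be mouse cells, whose reads reach a human gene only through shared sequence, so these values set no limit on carry-over. The 6 lung epithelial markers summed to 0.709 to 1.18 CPM in lung-recovered, 1.60 to 1.93 CPM in ITGB4-low and 0.717 to 1.17 CPM in ITGB4-high libraries. SFTPA1 and SCGB1A1 had 0 counts everywhere, and SFTPC and SFTPB had 1 count each over the lung-recovered libraries. AGER had 56, 52 and 47 counts over the lung-recovered, ITGB4-low and ITGB4-high libraries, and NKX2-1 had 5, 69 and 1. The 5 endothelial markers summed to 2.74 to 3.40 CPM in lung-recovered, 3.59 to 5.63 CPM in ITGB4-low and 3.23 to 3.96 CPM in ITGB4-high libraries. VWF had 0 counts and CDH5 had 1 count over the lung-recovered libraries. KDR had 174, 267 and 177 counts over the lung-recovered, ITGB4-low and ITGB4-high libraries, PECAM1 had 25, 10 and 4, and TEK had 17, 44 and 5. The 5 leukocyte markers summed to 6.76 to 8.05 CPM in lung-recovered, 5.77 to 6.12 CPM in ITGB4-low and 3.12 to 4.38 CPM in ITGB4-high libraries. The order of these sums is that of GJB2, and their part in the level of GJB2 was not tested. CD68 had 356, 279 and 142 counts over the lung-recovered, ITGB4-low and ITGB4-high libraries, and MARCO had 105, 53 and 38. PTPRC had 55, 58 and 0, CD14 had 8, 4 and 16, and C1QA had 0 everywhere. The 3 erythroid markers had 0 counts in the lung-recovered and ITGB4-high libraries and at most 0.0402 CPM in an ITGB4-low library.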

How the data were processed

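RNA from 8 libraries of Sum159 cells was measured as poly(A) RNA-seq, made strand-marked with dUTP, per the labels. The authors deposited raw counts per gene, without normalisation. STAR 2.7.1a and hg38 come from the submitters' processing notes. Not given in the sources used here are the counting program, its strand setting and the annotation release, so antisense and near-identical genes are uncertain. Of 58336 identifiers, 58216 matched GENCODE 29, which gave symbols, exon lengths and coordinates. Depth was 20.41 to 27.22 M counts per library. Floors cover counting error only.

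All libraries entered 1 edgeR 4.0.16 quasi-likelihood fit (R 4.3.3) with a term per group, TMM scaling and filterByExpr, which kept 15220 genes with 99.93% of counts. P-values were adjusted by Benjamini-Hochberg over all genes, with calls at 0.05, and SE is the log2 fold change over the square root of F. Libraries of a group differed beyond sampling noise (chi-square over its degrees of freedom, 1.60 to 6.59). The labels call the replicates biological without naming cultures or animals, so a p-value measures only how these samples spread, which may be technical. Likeness used log2(CPM + 0.5).

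Members and companion lists were chosen with earlier results of these data known. Companion genes named are, per list and comparison, the 2 called genes that rose most and the 2 that fell most, at a mean of 1 CPM or more in a group, besides connexin and pannexin genes and the 3 genes most like each member. Some listed genes are counted but not reported by name here. Alternatives were other scalings, DESeq2 1.42.0, limma-voom (limma 3.58.1), no filter, only the groups compared, a replicate block, longest transcripts and leaving out each library.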

Additional observations from a re-analysis of the deposited data

How the results depend on the processing

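All 180 alternative values of the log2 fold changes of GJA1, GJB2, GJC1 and PANX1 kept their sign and moved by less than the SD between replicates. Leaving out 1 library at a time gave GJB2 2.63 to 2.94 for lung-recovered over ITGB4-low, 5.79 to 5.94 for lung-recovered over ITGB4-high and 2.93 to 3.25 for ITGB4-low over ITGB4-high, and gave GJC1 -0.74 to -0.55, -0.21 to -0.02 and 0.48 to 0.55. All 90 alternative counts of called genes stayed within 1.5 times the count reported. Companion genes called ran from 20 to 30, 30 to 41 and 38 to 43 in the 3 comparisons when 1 library was left out. With the longest transcript as the length, the GJC1 share in ITGB4-high cells moved to 7.49%. Of 115 results on companion genes, 81 kept their call throughout and 34 changed it under at least 1 alternative. Besides those given with their genes above, the changed calls included PRKCD, PRKCE, CSNK1E and UBQLN4 for lung-recovered over ITGB4-low, CSNK1D, WWP1, TSG101 and STAMBP for lung-recovered over ITGB4-high, and STAMBP, TBX2, LRRC8D and MAPK3 for ITGB4-low over ITGB4-high. The cause was not tested.

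Replicate numbers did not pair the libraries: over 7 same-numbered pairs the correlation of deviations was -0.13 to 0.041, and 0 of 8 libraries correlated best with their own number. With a replicate block, edgeR called 4146, 7213 and 7990 genes in the 3 comparisons, of them 24, 36 and 42 companion genes, against 4586, 7789 and 8554 genes without it. Depth limits GJB5, with 0 to 20 counts per library, P2RX7 in ITGB4-low and GJB2 in ITGB4-high libraries.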
